A study of Mus musculus with 5 samples.

Results

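The small leucine-rich proteoglycans are secreted matrix proteins whose core is a series of leucine-rich repeats, many of them carrying glycosaminoglycan chains. The mouse genes Dcn, Bgn, Lum, Kera, Ogn, Fmod, Prelp, Aspn, Omd and Optc were taken by symbol from a table of RNA counts per gene, and all 10 were among its 56941 gene identifiers and among the 19713 genes that reached 10 counts in at least 1 library. They were read as 7 genes of general connective tissue stroma (Dcn, Bgn, Ogn, Fmod, Prelp, Aspn and Omd), 2 genes typical of corneal stroma (Kera and Lum) and 1 gene typical of the ciliary epithelium (Optc). RNA came from the iridocorneal angle, the ring of tissue between iris and cornea that holds the trabecular meshwork, of 12-month-old male and female mice. The iris and ciliary body were removed at dissection, but some remnants of both stayed attached. DBA/2J mice, which develop pigmentary glaucoma, carry a nonsense allele of Gpnmb and the b allele of Tyrp1, and gave 3 pools. Gpnmb+ mice (DBA/2J-Gpnmb+/SjJ) are the same strain with a functional Gpnmb allele. They still carry Tyrp1 b, and gave 2 pools. The design gives 3 mice per pool, while the library names list 3 animals for DBA/2J pools but 2 for Gpnmb+ pools, so each value averages a few mice and the p-values measure the spread between pools.

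Decorin (Dcn), biglycan (Bgn) and asporin (Aspn) belong to the first class of the family, and the first pair carries chondroitin or dermatan sulfate. Fibromodulin (Fmod), lumican (Lum), keratocan (Kera), osteomodulin (Omd) and Prelp form the second class, in which several members carry keratan sulfate, and osteoglycin (Ogn) and opticin (Optc) belong to the third. Most of them bind the surface of collagen fibrils and set fibril diameter and spacing. Keratocan and lumican keep the fibrils of the cornea evenly spaced, and opticin is made by the nonpigmented ciliary epithelium and deposited in the vitreous.

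Counts on genes summed to 43900661 to 49837758 per pool. Gpnmb had 1946 to 2234 counts in the DBA/2J pools against 110568 and 129659 in the Gpnmb+ pools. All pools are labelled as male and female, but their sex-linked RNA differed: the Y-linked gene Ddx3y was counted 3608, 4168 and 1567 times in DBA/2J pools 1 to 3 but 0 and 4 times in the Gpnmb+ pools, and Xist 596, 0 and 2417 times against 7843 and 9152. Genotype and sex therefore cannot be told apart in these comparisons. Of 6 trabecular meshwork markers, none was at 0 in any pool, and Tfap2b, a transcription factor of the neural crest, was called lower in DBA/2J (adjusted p = 0.0189 in edgeR, and from 0.0627 to 0.0991 without any 1 DBA/2J pool or Gpnmb+ pool 2, which ended the call). Myoc, Angptl7 and Foxc1 were also lower in every DBA/2J pool and not called, Mgp overlapped, and Chi3l1, the most abundant of the 6, lay the other way (log2 fold change 1.17, adjusted p = 0.103 in edgeR), with the summed level of the 6 at 4115 to 5050 CPM in DBA/2J against 2733 to 3394 CPM in Gpnmb+. In bulk tissue, fewer cells of a type and less RNA per cell cannot be told apart.

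Of the 10 genes, 9 lie in 3 clusters of neighbouring genes and Bgn lies by itself on the X chromosome (GRCm39, GENCODE release M39). Optc (ENSMUSG00000010311), Prelp (ENSMUSG00000041577) and Fmod (ENSMUSG00000041559) span chr1:133824937-133976015. Dcn (ENSMUSG00000019929), Lum (ENSMUSG00000036446) and Kera (ENSMUSG00000019932) span chr10:97315275-97449554, and Aspn (ENSMUSG00000021388), Omd (ENSMUSG00000048368) and Ogn (ENSMUSG00000021390) span chr13:49697609-49780412. Bgn (ENSMUSG00000031375) begins at chrX:72527208. The 250 bases before the start of the canonical transcript are shown for 3 of them, for what differs between the genes described next: Prelp and Bgn, with all DBA/2J pools above both Gpnmb+ pools, and Dcn, with all DBA/2J pools below. Prelp is read from the minus strand (chr1:133849153-133849402) and the others from the plus strand (Bgn, chrX:72526958-72527207; Dcn, chr10:97315025-97315274). Capitals mark matches, on either strand, to the GC box GGGCGG and to the homeobox-type motif TAATTA. The canonical starts of Prelp, Optc and Aspn lie inside their annotated gene bodies, which longer transcripts extend.
Prelp: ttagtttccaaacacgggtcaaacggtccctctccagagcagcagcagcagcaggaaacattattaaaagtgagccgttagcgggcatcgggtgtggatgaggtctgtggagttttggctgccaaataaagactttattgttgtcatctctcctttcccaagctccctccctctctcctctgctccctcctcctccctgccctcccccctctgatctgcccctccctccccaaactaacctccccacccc
Bgn: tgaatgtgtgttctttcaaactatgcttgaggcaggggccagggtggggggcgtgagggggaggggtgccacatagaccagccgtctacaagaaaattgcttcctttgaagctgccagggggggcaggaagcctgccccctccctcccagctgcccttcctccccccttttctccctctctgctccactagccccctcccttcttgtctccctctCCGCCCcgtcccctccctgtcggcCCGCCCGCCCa
Dcn: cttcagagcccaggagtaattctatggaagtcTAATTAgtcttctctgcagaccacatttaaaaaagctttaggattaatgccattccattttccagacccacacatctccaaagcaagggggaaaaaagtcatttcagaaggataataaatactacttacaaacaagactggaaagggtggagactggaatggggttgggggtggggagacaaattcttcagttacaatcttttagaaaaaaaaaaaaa
G and C made up 55.2% of the bases before Prelp and 64% of those before Bgn, against 38.4% before Dcn. The 4 genes whose DBA/2J pools were all above the Gpnmb+ pools (Bgn, Prelp, Fmod and Optc) had from 50.8% to 64% in this window and from 51.9% to 53.7% in the transcript, and the other 6 had from 34.4% to 41.9% in the transcript. In the window, the 5 of these 6 read here, all but Kera, had from 30.0% to 38.4%. With the 15917 tested protein-coding genes that had both sequences divided into 5 groups by GC content, the median log2 fold change of a group ran from -0.012 to 0.0048 for the window and from -0.027 to 0.0078 for the transcript. The GC box was in the Bgn window among the 9 read, and in 36.3% of 21770 such windows. TAATTA was in the Dcn window and in 5.18% of all windows, the TATA box TATAAA in the Aspn and Ogn windows and in 11.9%, and the AP-1 motif TGANTCA in none of the 9 windows and in 6.17%.

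Set against transcript length, Bgn RNA was the most abundant of the family in both genotypes and Kera RNA the least. Levels are CPM, counts scaled to library size with edgeR's TMM factors, here divided by the length of the canonical transcript in kb. Bgn averaged 791 ± 96.3 (SD, n = 3) CPM per kb in DBA/2J against 571 ± 11.9 (SD, n = 2) for Gpnmb+. In DBA/2J the order then ran Fmod (493 ± 12.7), Dcn (357 ± 34.5), Optc (320.1 ± 42.3), Lum (269 ± 15.9), Prelp (155 ± 2.88), Ogn (81.2 ± 9.20), Aspn (63.5 ± 1.43), Omd (25.1 ± 4.22) and Kera (6.23 ± 1.69). Dcn and Optc, and Optc and Lum, were within their summed SDs of each other. In Gpnmb+ it ran Dcn (484 ± 5.28), Fmod (332 ± 24.9), Lum (299.9 ± 34.4), Prelp (89.6 ± 10.2), Ogn (80.4 ± 4.93), Aspn (69.9 ± 2.27), Optc (66.3 ± 35.1), Omd (26.6 ± 0.046) and Kera (13.3 ± 3.93). There, Fmod and Lum, and Prelp and Ogn, were that close, and Optc was that close to each of Aspn, Ogn and Prelp. Optc had rank 4 by level in DBA/2J and rank 8 in Gpnmb+, and these SDs settle neither rank. The order depends on the transcript length chosen: with the union of all exons, Fmod was highest in both genotypes. The 10 genes together took 0.769, 0.809 and 0.858% of all counts in the DBA/2J pools (1 to 3), against 0.764 and 0.717% in Gpnmb+ pools 1 and 2.

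**Figure D1:**
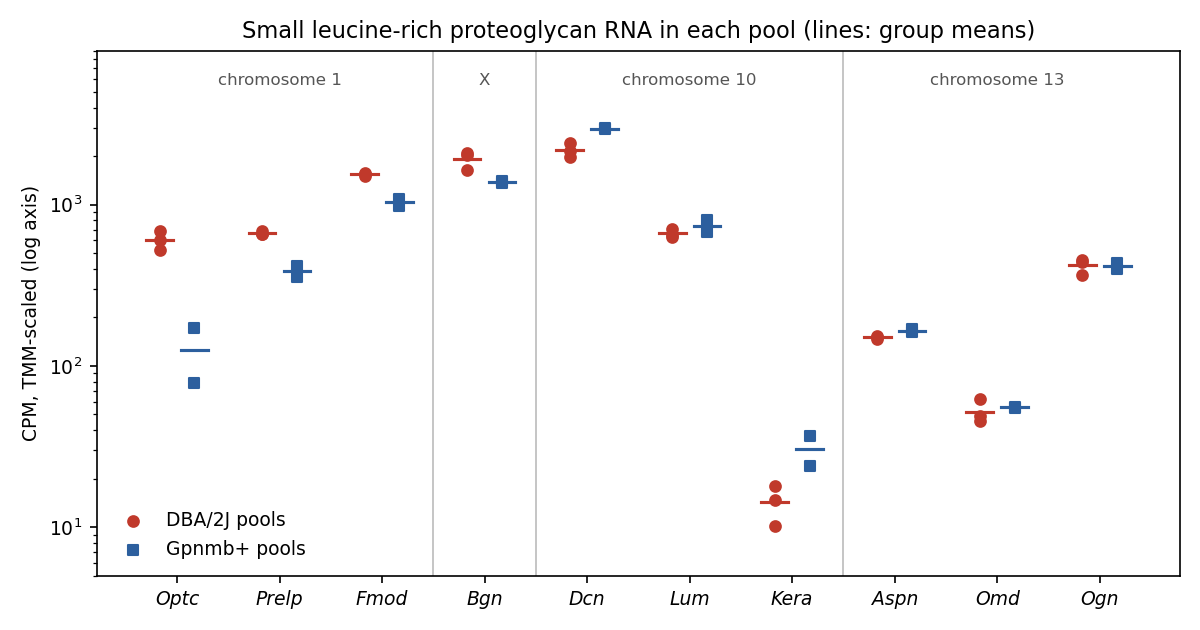
CPM scaled by TMM (log axis) of the 10 genes, ordered by chromosome, in the 3 DBA/2J pools (red circles) and the 2 Gpnmb+ pools (blue squares), with lines at the group means. The pools of Optc, Prelp, Fmod and Bgn lie higher in DBA/2J, those of Dcn, Kera and Aspn lower, and those of Lum, Omd and Ogn overlap.

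Between genotypes, 1 of the 10 genes, Prelp, was called, higher in DBA/2J, where 0.502% of all tested genes were called higher, 0.294% lower and 0.796% in either direction. A gene was called when its p in edgeR's quasi-likelihood test, adjusted by Benjamini-Hochberg over all tested genes, was 0.05 or less and the genotypes differed by 1.5-fold or more. A log2 fold change above 0 means more RNA in DBA/2J. The groups of pools did not overlap in CPM for 7 of the 10 genes, 4 of them higher in DBA/2J and 3 lower, where 34.5% of all tested genes did not overlap, 17.3% higher and 17.2% lower. The log2 fold change was above 0 for 5 of the 10 genes and below 0 for 5, with a median of -0.036. Over all tested genes it was above 0 for 9350 of 19713, with a median of -0.017.

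Prelp, which anchors basement membranes to the underlying matrix, was the called member. DBA/2J pools 1 to 3 held 29368, 28373 and 30437 of its counts, and Gpnmb+ pools 1 and 2 held 21230 and 17411. All DBA/2J pools lay above both Gpnmb+ pools, and the CPM averaged 668 ± 12.4 (SD, n = 3) against 387 ± 44.2 (SD, n = 2). The log2 fold change was 0.79 (standard error 0.11, 1.73-fold, adjusted p = 0.0461 in edgeR). The call was lost without DBA/2J pool 1, 2 or 3 (adjusted p = 0.149, 0.134 and 0.134 in edgeR). Those fits called 6, 1 and 17 of all tested genes, against 157 with all pools, so the loss was not particular to Prelp. With any 1 pool left out, Gpnmb+ pools included, the log2 fold change of Prelp ran from 0.68 to 0.91. With upper-quartile scaling in place of TMM the adjusted p was 0.0547 in edgeR, which also ended the call.

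Fmod and Bgn had all DBA/2J pools above the Gpnmb+ pools but were not called. Fibromodulin, which competes with lumican for the same site on collagen, had 66510, 67623 and 68744 counts in DBA/2J versus 55317 and 47965 in Gpnmb+. The fitted log2 fold change was 0.57 (standard error 0.11, 1.48-fold, 95% confidence interval 0.31 to 0.83, adjusted p = 0.0858 in edgeR). The ratio of Prelp to Fmod was 0.442, 0.420 and 0.443 in DBA/2J pools and 0.384 and 0.363 in Gpnmb+ pools, higher in every DBA/2J pool (log2 difference 0.22). Biglycan, which signals through Toll-like receptors when released from the matrix, had 89764, 70742 and 92706 counts in DBA/2J versus 69099 and 68609 in Gpnmb+. In CPM, which adjusts for library size, DBA/2J pool 2 lay nearest the Gpnmb+ pools, at 1648 against 1362 and 1403. For Bgn the log2 fold change was 0.47 (standard error 0.14, 95% confidence interval 0.13 to 0.81, adjusted p = 0.193 in edgeR). Bgn lies on the X chromosome, and the part of the pools' sex in its difference was not tested.

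Decorin, the close relative of biglycan that binds and sequesters TGF-beta, lay the other way. Dcn had 88339, 103230 and 95937 counts in DBA/2J pools versus 151159 and 143497 in Gpnmb+ pools, with no overlap. The log2 fold change was -0.44 (standard error 0.13, 95% confidence interval -0.75 to -0.13, adjusted p = 0.185 in edgeR), and it was not called. The ratio of Bgn to Dcn counts within a pool, which no scaling between pools can move, was 1.02, 0.685 and 0.966 in DBA/2J and 0.457 and 0.478 in Gpnmb+. It was thus higher in every DBA/2J pool, by 0.91 on the log2 scale of the mean. Its two-sided exact permutation p, like that of Prelp to Fmod, was 0.2, the smallest that 3 pools against 2 allow, and 0.24 after Benjamini-Hochberg adjustment over the 6 ratios compared. In DESeq2's Wald test the adjusted p was 2.2e-07 for Fmod, 0.0148 for Bgn and 0.00643 for Dcn, with each below the fold minimum of 1.5 there too.

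Aspn, Omd and Ogn, the chromosome 13 genes, differed least. Asporin, which lacks glycosaminoglycan chains and inhibits TGF-beta, had 6527, 6483 and 6849 counts in DBA/2J versus 8601 and 7919 in Gpnmb+. Its DBA/2J pools were all lower in CPM, by a small amount (log2 fold change -0.14, 95% confidence interval -0.33 to 0.05, adjusted p = 0.435 in edgeR). Osteomodulin, a keratan sulfate protein of bone and tooth matrix, had 2165, 2659 and 2027 counts against 2799 and 2705, and its pools overlapped in CPM. Osteoglycin, also named mimecan, had 16283, 19578 and 19559 counts against 22027 and 19470, and its pools overlapped too. The log2 fold changes were -0.09 for Omd (95% confidence interval -0.44 to 0.26, adjusted p = 0.818 in edgeR) and 0.01 for Ogn (-0.29 to 0.32, adjusted p = 0.967), so a difference of 1.5-fold in either direction lies outside both intervals. The 3 genes lie within the body of Cenpp on the opposite strand, and the strand used in counting was not stated. Cenpp itself had 45 to 198 counts per pool, far fewer than any of them.

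The corneal genes Kera and Lum share a cluster and a tissue but not a size of difference. Kera had 452, 767 and 661 counts in DBA/2J versus 1220 and 1800 in Gpnmb+, and every DBA/2J pool was lower. Its log2 fold change was -1.09 (standard error 0.28, 2.13-fold higher in Gpnmb+, 95% confidence interval -1.77 to -0.42), with an adjusted p of 0.147 in edgeR, and it was not called. Lum had 28009, 30303 and 29062 counts in DBA/2J versus 40471 and 33162 in Gpnmb+, and the groups overlapped in CPM (log2 fold change -0.16, 95% confidence interval -0.44 to 0.13, adjusted p = 0.564 in edgeR). The ratio of Kera to Lum was 0.0161, 0.0253 and 0.0227 in DBA/2J and 0.0301 and 0.0543 in Gpnmb+, lower in every DBA/2J pool (log2 difference -0.94, exact permutation p = 0.2, adjusted 0.24).

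Some other corneal genes were also lower in DBA/2J. Of 5 keratocyte markers, Chst5 was called lower (described with the sulfotransferases) and 4 were not called. The 5 had a median log2 fold change of -0.70 and none was at 0 in any pool, but 3 of them (Aldh3a1, Cd34 and B3gnt7) overlapped between genotypes. Their summed level was 1117 to 1901 CPM in DBA/2J and 1983 to 2439 CPM in Gpnmb+. Most of it came from Aldh3a1, which averaged 1143 CPM in DBA/2J and 1855 CPM in Gpnmb+. Angptl7 is also among the trabecular meshwork markers given above. Aldh3a1, an abundant crystallin of the cornea that is not confined to keratocytes, had 42135, 70043 and 37930 counts against 80971 and 103385. The part of corneal epithelium in the Aldh3a1 values was not tested. The ratio of Kera to Aldh3a1 was 0.0107, 0.0110 and 0.0174 in DBA/2J and 0.0151 and 0.0174 in Gpnmb+, and it overlapped between genotypes (log2 difference -0.35, exact permutation p = 0.6, adjusted 0.6). Of 3 corneal endothelium markers, Slc4a11, a membrane transporter, was called lower (log2 fold change -1.75, adjusted p = 0.0283 in edgeR, and from 0.0869 to 0.118 without any 1 DBA/2J pool or Gpnmb+ pool 2). Of the other 2, Col8a2 was also lower in every DBA/2J pool but not called (log2 fold change -0.40, adjusted p = 0.229 in edgeR). Col8a1 lay slightly the other way, with overlapping pools (log2 fold change 0.10, adjusted p = 0.711 in edgeR). Krt12, the keratin of corneal epithelium, had 11298, 4970 and 421 counts in DBA/2J versus 86337 and 27106 in Gpnmb+. The part of these cells in the Kera values was not tested.

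Optc showed the largest difference of the family. The DBA/2J pools held 23303, 25842 and 30503 Optc counts, and the Gpnmb+ pools 8713 and 3826. The groups did not overlap, and the Gpnmb+ pools stood apart from each other, at 172 and 78.2 CPM against 524 to 684 CPM in DBA/2J. The log2 fold change was 2.27 (standard error 0.35, 4.83-fold, 95% confidence interval 1.42 to 3.12), with an adjusted p of 0.0543 in edgeR, so it was not called. Without Gpnmb+ pool 1 it was 2.95 and called (adjusted p = 0.0204 in edgeR), and without Gpnmb+ pool 2 it was 1.81 and not called (adjusted p = 0.0991). DESeq2's Wald test with the same thresholds called Optc, Prelp and Kera (adjusted p = 1.9e-10, 5.8e-10 and 0.00672 in DESeq2), in a fit that called 4.7% of all tested genes, 2.76% higher and 1.94% lower. The same 3 members passed in edgeR at an unadjusted p of at most 0.05 with the fold minimum kept, as did 8.67% of all tested genes. Without the fold minimum 6 members (these with Fmod, Dcn and Bgn) had an unadjusted p under 0.05, as did 15.9% of all tested genes. Gm15851, a long noncoding RNA, overlaps Optc and Prelp on the opposite strand and had 32 to 44 counts per pool.

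Markers of the nonpigmented ciliary epithelium lay the same way as Optc. All 10 of them had every DBA/2J pool above both Gpnmb+ pools, none was at 0 in any pool, and the summed level was 729 to 835 CPM in DBA/2J against 247 to 364 CPM in Gpnmb+. The collagen IX chains Col9a1 (log2 fold change 2.06, adjusted p = 0.0368 in edgeR) and Col9a2 (2.38, 0.0283), and the eye field transcription factor Six6 (1.74, 0.0265), were called higher. Each of these 3 calls was lost without any 1 DBA/2J pool and without Gpnmb+ pool 2 (adjusted p from 0.0757 to 0.119 in edgeR). The level of Optc relative to the summed markers was 0.719, 0.760 and 0.819 in DBA/2J and 0.472 and 0.317 in Gpnmb+. Optc was thus higher in every DBA/2J pool on that scale as well (log2 difference 0.98, exact permutation p = 0.2, adjusted 0.24). That scale depends on the markers summed: Col9a2 differed more than Optc (log2 fold change 2.38 against 2.27), and the other markers differed less. The ratio of Optc to Prelp, its neighbour on the chromosome, was 0.793, 0.911 and 1.00 against 0.410 and 0.220 (log2 difference 1.58, exact permutation p = 0.2, adjusted 0.24). The part of ciliary tissue left after dissection in the Optc values was not tested.

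**Figure D2:**
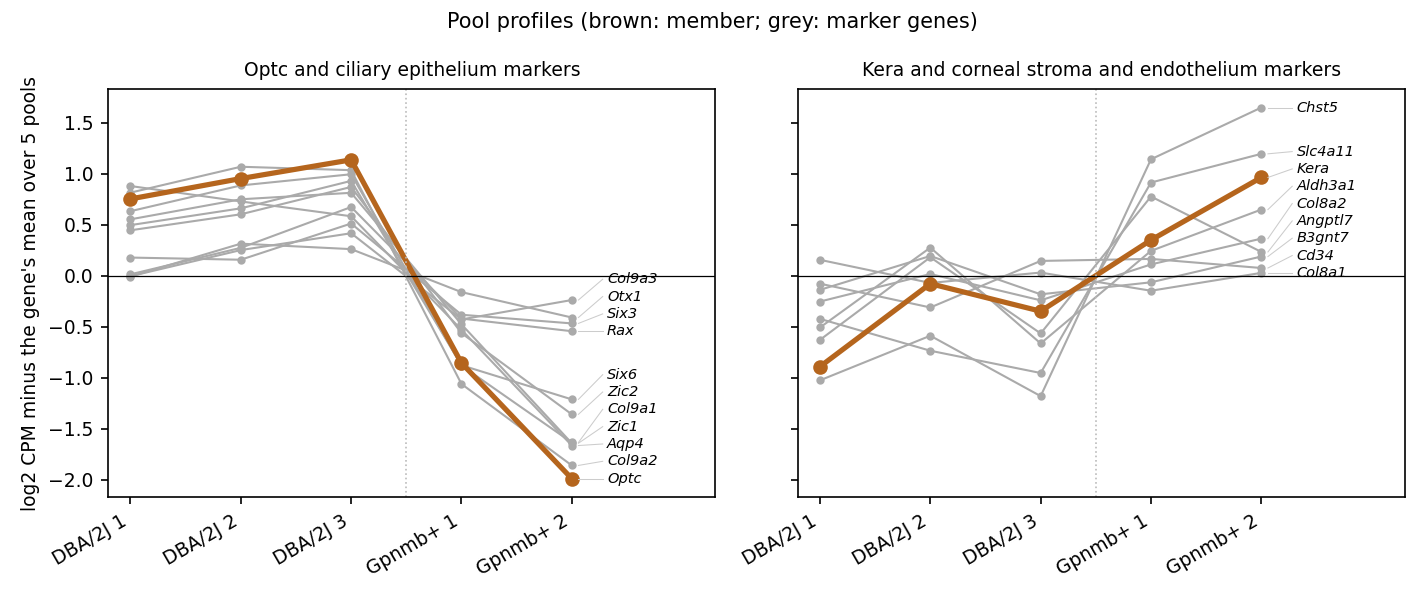
Log2 CPM minus the gene's mean over the 5 pools, for Optc with 10 ciliary epithelium markers (left) and Kera with 8 keratocyte and corneal endothelium markers (right). Members are brown, markers are grey, and lines only join a gene's points. Optc and every ciliary marker lie near or above 0 in DBA/2J and below it in Gpnmb+, and Kera and 4 of the 8 corneal markers have both Gpnmb+ pools above every DBA/2J pool.

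Genes with pool profiles most like those of Optc, Kera and Prelp were sought among 13840 genes with a mean of at least 100 counts, by the root mean square difference of centred log2 CPM over the 5 pools. For Optc the nearest were Col9a2 (0.132), Col9a1 (0.183), Crhbp (0.243), Clec18a (0.268) and Tbx20 (0.269). For Kera they were Cnmd (0.0608), Pkhd1l1 (0.0621), Orm1 (0.0879), Slc16a8 (0.0949) and Hsbp1l1 (0.0974). For Prelp they were Pcdhb9 (0.0240), Jazf1 (0.0260), Tox (0.0339), Ltbp3 (0.0343) and Vtn (0.0434), the last pair called higher in DBA/2J (log2 fold change 0.73 and 0.77, adjusted p = 0.0479 and 0.0382 in edgeR, and from 0.120 to 0.186 without any 1 DBA/2J pool or Gpnmb+ pool 2, with Ltbp3 at 0.0557 without Gpnmb+ pool 1 and at 0.0557 with upper-quartile scaling). Ltbp3 binds latent TGF-beta, and Vtn encodes the adhesion protein vitronectin. These orders rest on 5 pools of 2 genotypes and are descriptions.

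**Figure D3:**
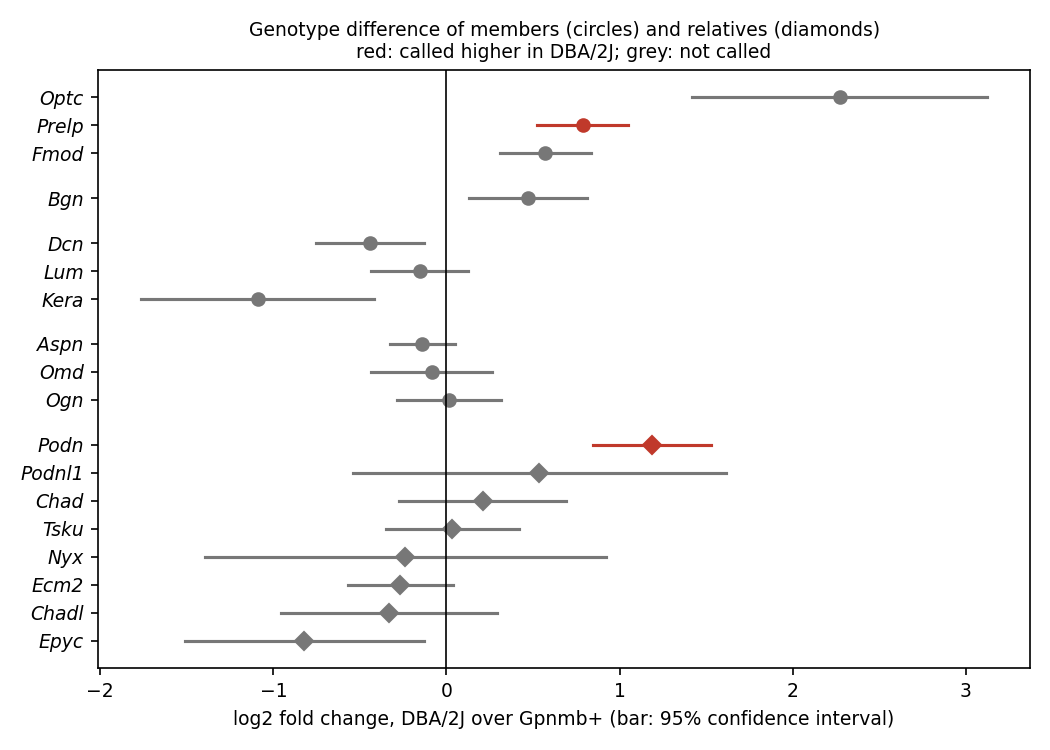
Log2 fold change of DBA/2J over Gpnmb+ with its 95% confidence interval for the 10 genes (circles, grouped by chromosome) and 8 relatives (diamonds), with calls in red. Prelp and Podn are called, and the interval of Optc lies farthest from 0.

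The clusters differed in the side on which their members lay: all 3 members above 0 on chromosome 1, and all 3 below 0 on chromosome 10. The 10 other tested genes within 250 kb of Optc, Prelp and Fmod centred on a log2 fold change of 0.55 (the median), with 8 above 0. Of these 10, 0 were called by edgeR, 2 had an unadjusted p under 0.05 in edgeR (15.9% of all tested genes) and 2 were called by DESeq2 (4.7%). Among these neighbours, Btg2, an early response gene, had 14356 counts in DBA/2J pool 1 and 1607 to 1930 in the others, and its log2 fold change of 2.03 became 0.37 without that pool. Adora1, the adenosine A1 receptor, had 5719, 5861 and 6809 counts in DBA/2J versus 3956 and 2660 in Gpnmb+ (log2 fold change 1.07, adjusted p = 0.0607 in edgeR). Adora1 and Chi3l1, the latter given above as a trabecular meshwork marker, were the neighbours called by DESeq2 (adjusted p = 1.9e-06 and 5.5e-05 in DESeq2). The log2 fold change of Chi3l1 was 1.17 (adjusted p = 0.103 in edgeR). On chromosome 10 the single tested neighbour was Epyc, a further member of the family that is typical of cartilage, with 387, 333 and 642 counts against 1032 and 782 (log2 fold change -0.82, adjusted p = 0.251 in edgeR). On chromosome 13 the 7 neighbours had a median of -0.049, with 3 above 0 and 0 called by edgeR, 0 by DESeq2 and 0 at an unadjusted p under 0.05.

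**Figure D4:**
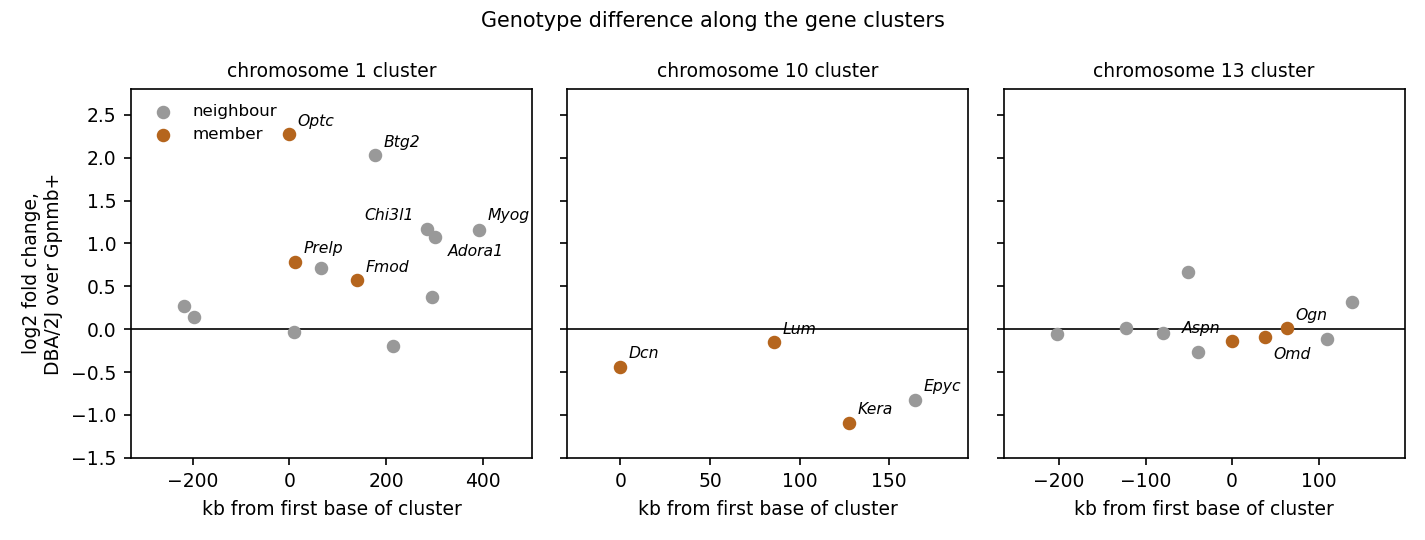
Log2 fold change of DBA/2J over Gpnmb+ against distance in kb from the first base of each cluster, for members (brown) and the other tested genes within 250 kb (grey). Members lie above 0 on chromosome 1, below it on chromosome 10 and near it on chromosome 13, and the grey points spread on both sides on chromosomes 1 and 13.

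Among the 8 relatives of the family, Podn was called higher in DBA/2J, and the median log2 fold change was -0.10. Podocan, a matrix protein that restrains smooth muscle growth, had 2721, 2495 and 2948 counts in DBA/2J versus 1563 and 1151 in Gpnmb+, with no overlap (log2 fold change 1.19, standard error 0.14, adjusted p = 0.0350 in edgeR). That call was lost without any 1 DBA/2J pool and without Gpnmb+ pool 2 (adjusted p from 0.108 to 0.120). The remaining 7 were not called, and Epyc had the largest difference among them. Ecm2, which lies beside Aspn, had 1577, 1984 and 1869 counts against 2470 and 2470 (log2 fold change -0.27, adjusted p = 0.367 in edgeR).

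Most of the enzymes that build the chains on these core proteins were not called by edgeR, where 0.796% of all tested genes were called. Of 7 enzymes of the linker to the core protein, 0 were called by edgeR, 0 by DESeq2 and 0 at an unadjusted p under 0.05, with log2 fold changes from -0.26 to 0.19. Of the 15 chondroitin and dermatan sulfate enzymes tested, Chst11, a chondroitin 4-O-sulfotransferase, was called higher, with 3584, 3291 and 4057 counts in DBA/2J versus 2203 and 2090 in Gpnmb+ (log2 fold change 0.94, standard error 0.10, adjusted p = 0.0294 in edgeR). The median of these 15 was 0.10. DESeq2 called 1 of them, against 4.7% of all tested genes, and 5 had an unadjusted p under 0.05 in edgeR, against 15.9%. Of 7 keratan sulfate enzymes, Chst5, a sulfotransferase of corneal keratan sulfate, was called lower, with 91, 119 and 82 counts in DBA/2J versus 467 and 640 in Gpnmb+ (log2 fold change -2.33, standard error 0.25, adjusted p = 0.0290 in edgeR). Chst5 is also among the keratocyte markers given beside Kera. Chst2, which sulfates the same sugar, had 2963, 2732 and 3846 counts against 2314 and 2327 and was not called by edgeR (log2 fold change 0.63, adjusted p = 0.125 in edgeR). DESeq2 called Chst2 as well as Chst5 (adjusted p = 0.00643 for Chst2 in DESeq2). These were 2 of the 7 keratan sulfate enzymes, against 4.7% of all tested genes. An unadjusted p under 0.05 in edgeR was also found for 2 of the 7, against 15.9%. Without any 1 DBA/2J pool and without Gpnmb+ pool 2, Chst11 and Chst5 were not called (adjusted p from 0.0757 to 0.140), nor was Chst11 without Gpnmb+ pool 1 (0.0618).

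Among collagens, proteases and signalling partners of these proteins, Htra1 and Bmp4 were called by edgeR, both higher in DBA/2J. Of 14 fibrillar and fibril-associated collagens, 11 had a log2 fold change above 0, the median was 0.63, and 0 were called by edgeR. DESeq2 called 7 of them, against 4.7% of all tested genes, and 8 had an unadjusted p under 0.05 in edgeR, against 15.9%. Col1a1 had 61936, 43698 and 49906 counts in DBA/2J versus 34282 and 24885 in Gpnmb+ (log2 fold change 0.99, adjusted p = 0.0867 in edgeR), and Col2a1 had 2189, 1701 and 2165 against 809 and 417 (1.90, 0.0513). Of 14 proteases and inhibitors that act on the family, 13 were above 0, the median was 0.46, and Htra1, a serine protease that cleaves decorin and biglycan, was called higher, with 18559, 17620 and 16707 counts against 11221 and 9744 (log2 fold change 0.93, standard error 0.10, adjusted p = 0.0300 in edgeR). Mmp13, a collagenase, had 2519, 1164 and 3965 counts against 822 and 728 and was not called by edgeR (log2 fold change 1.89, standard error 0.48, adjusted p = 0.147 in edgeR). DESeq2 called Mmp13 (adjusted p = 0.000359 in DESeq2). It called 4 of these 14, against 4.7% of all tested genes, and 8 had an unadjusted p under 0.05 in edgeR, against 15.9%. Of 15 growth factors and receptors that the family binds, Bmp4, a ligand of the TGF-beta family, was called higher, with 2639, 2581 and 2860 counts against 1804 and 1419 (log2 fold change 0.92, standard error 0.11, adjusted p = 0.0379 in edgeR), and the median was 0.14. DESeq2 called 3 of these 15, and 5 had an unadjusted p under 0.05 in edgeR. The edgeR calls of Htra1 and Bmp4 were lost without any 1 DBA/2J pool (adjusted p from 0.0778 to 0.126 in edgeR). Without Gpnmb+ pool 2 their log2 fold changes were 0.86 and 0.78.

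Markers of general connective tissue, given beside the stromal genes, were mostly not called. Of 8 fibroblast markers, 8 had overlapping groups of pools and 0 were called by edgeR, 0 by DESeq2 and 0 at an unadjusted p under 0.05, the median log2 fold change was 0.00287, and the summed level was 590.0 to 814 CPM in DBA/2J and 670.1 to 696 CPM in Gpnmb+. Of 7 cartilage and sclera markers, 7 were above 0 and 0 were called by edgeR. DESeq2 called 2 of them, against 4.7% of all tested genes, and 3 had an unadjusted p under 0.05 in edgeR, against 15.9%. The summed level of the 7 was 154 to 172 CPM in DBA/2J and 110 to 126 CPM in Gpnmb+. Of 4 tendon markers, Mkx, a tendon transcription factor, was called lower (log2 fold change -0.96, adjusted p = 0.0374 in edgeR, and from 0.0711 to 0.145 without any 1 pool). Scx, another tendon transcription factor, was higher in every DBA/2J pool, with 551, 528 and 558 counts against 390 and 351, and was not called (log2 fold change 0.74, adjusted p = 0.0593 in edgeR), and Tnmd and Thbs4 overlapped. The 8 skeletal muscle markers summed to 188 to 497 CPM in DBA/2J and 140 to 196 CPM in Gpnmb+. The part of these cells in the stromal values was not tested.

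As shares of the family's summed level per kb, Optc made up 11.2, 12.6 and 13.6% in the DBA/2J pools, against 4.33 and 2.12% in the Gpnmb+ pools. Dcn made up 13.1, 15.6 and 13.2% in DBA/2J and 23.2 and 24.5% in Gpnmb+. Bgn, with 33.5, 26.9 and 32.2% against 26.7 and 29.5%, overlapped between genotypes on this scale. Shares sum to a fixed total, so they are not independent of each other.

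**Figure D5:**
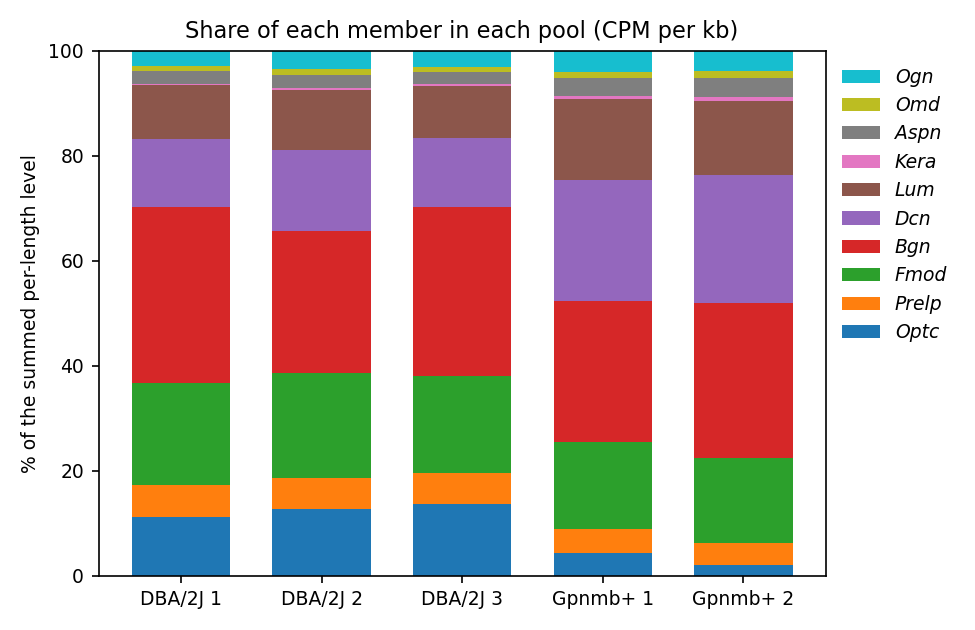
Share (%) of each of the 10 genes in their summed CPM per kb of canonical transcript, as stacked bars for the 3 DBA/2J and 2 Gpnmb+ pools. The Optc share is larger in each DBA/2J pool, and the Dcn share in each Gpnmb+ pool.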

How the data were processed

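Libraries came from 5 pools of mouse iridocorneal angle, 3 of DBA/2J and 2 of Gpnmb+. For every pool the authors deposited raw counts, the number of reads per gene that aligned to a single place, after trimming by fastp and alignment by STAR against GRCm39, and no normalization was applied. The strand used in counting was not stated, so genes that overlap are uncertain. Names and positions came from GENCODE M39, which held 56323 of 56941 identifiers. RefSeq promoter tables of another build were not used, and the windows before each gene were read from the GRCm39 genome.

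Genes reaching 10 counts in any 1 pool were scaled by TMM and tested in R 4.3.3 with edgeR 4.0.16 (quasi-likelihood, no covariate). A call took an adjusted p (Benjamini-Hochberg) no higher than 0.05 together with a difference of 1.5-fold or more, and log2 CPM carried a prior count of 2. DESeq2 1.42.0, ashr 2.2.63 and limma 3.58.1 gave alternatives, and Python 3.11.15 (pandas 2.3.3, scipy 1.17.1) made the tables. The test was also run on simulated counts with known changes, all larger than those of the members other than Optc. Its outcome there is not reported here.

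The members and all gene lists were chosen with earlier results of these data known. Named genes were all members, called genes of each list, up to 4 others of each list by size of change, and the nearest profiles. Aldh3a1, Krt12, Ecm2, Chst2, Btg2, Adora1, and Chi3l1 as a neighbour, were picked for mention after their values were seen, within that rule or beside a result. Other settings were another scaling or filter, other tools, each pool left out, and the pool number as a block. Proteomics was not analysed here, and 2 marker genes and 1 promoter window are not reported here.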

Additional observations from a re-analysis of the deposited data

How the results depend on the processing

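The number of members called was 1 with edgeR and TMM, 0 with upper-quartile scaling, 2 with limma-voom, and 3 without the count minimum, with DESeq2, with DESeq2 and ashr, and at an unadjusted p of at most 0.05 with the fold minimum kept, and ran from 0 to 1 with a pool left out. Over all tested genes the number called was 157, against 360 without the count minimum, 927 with DESeq2, 734 with ashr and 1710 at that unadjusted p and fold, and ran from 1 to 217 with a pool left out (6, 1 and 17 without DBA/2J pools 1 to 3, and 217 and 2 without Gpnmb+ pools 1 and 2). Where a Gpnmb+ pool was left out, the lone pool was assumed to vary like the others. The cause of these moves was not tested. The median log2 fold change of the members ran from -0.095 to 0.032 with a pool left out. Ogn changed sign, to -0.0089 with upper-quartile scaling and -0.024 with the replicate block, and ran from -0.048 to 0.10 with a pool left out. Omd ran from -0.23 to 0.0029, changing sign without DBA/2J pool 3. The other 8 members kept their sign in every alternative run. Pool numbers 1 and 2 occur in both genotypes, and the labels do not say that they mark a shared batch. The correlation of deviations from the group mean was 0.279 and 0.254 for same-numbered pools. Against the other Gpnmb+ pool it was -0.279 and -0.254. With 2 Gpnmb+ pools each value forces its opposite, so these values do not decide whether a batch was shared. With the pool number as a block, 1 member was called, Kera (log2 fold change -1.14, adjusted p = 0.0413 in edgeR), in place of Prelp (0.78, 0.0528), and 220 genes were called in all. The members had 452 counts or more in every pool, and the number of pools limits the precision.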
